A study of Rattus norvegicus with 2 samples.

Results

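Angiopoietins, the Tie receptors they bind and angiopoietin-like proteins were followed in cultured skeletal muscle stem cells of diabetic rats. The 8 genes were taken by an exact match of the gene symbol in the deposited annotated table, and all 8 (Angpt1, Angpt2, Angpt4, Tek, Tie1, Angptl1, Angptl2 and Angptl4) were found among 18489 genes, each with 1 probe set. The set was proposed with the values of these same arrays in view, so the members were in effect selected on their early and late intensities, and their levels and differences are a description with no test. The cells, called MDSC in the labels, came from male obese Zucker fa/fa rats, whose leptin receptor is mutated and which become insulin resistant; 1 sample was labelled early diabetes and 1 late diabetes. Both samples share the fa/fa genotype, and no sample from lean rats is analysed here. Per the labels' protocols the cells grew in medium with 20% serum and either 5.6 mM or 22 mM glucose, and RNA was taken from individual culture wells; the labels do not give the glucose level of each array, nor the age or number of the rats. The cells were studied for implantation in a rat model of erectile dysfunction.

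Angiopoietin 1 is the activating ligand of Tie2, the receptor tyrosine kinase encoded by Tek, and it is known mainly as a product of perivascular cells that steadies blood vessels. Angiopoietin 2 competes for the same receptor and can block or weakly activate it, angiopoietin 4 is a less studied ligand of Tie2, and Tie1 is a co-receptor that modifies Tie2 signalling. Angiopoietin-like proteins share the domain layout of angiopoietins but do not bind Tie receptors: Angptl2 is a secreted protein linked to inflammation and to integrin binding, Angptl4 inhibits lipoprotein lipase, and Angptl1 is a secreted factor that restrains vessel growth.

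Each sample was hybridised to a single Affymetrix array, the Rat Gene 1.0 ST, in 1 colour. Values are given below in the order early, then late, as normalized intensity or its log2. With 1 array per group there was no spread between cultures or animals, no p-value, SE or SD could be given for a gene, and every statement describes these 2 arrays. The arrays were on one scale, with median normalized intensities of 187 and 183 over 29214 probe sets. A background level was set at log2 6.81 (an intensity of 112), under which 95% of the values of 1199 olfactory receptor genes lay. Olfactory receptors were taken to be off in muscle-derived cells, which was not tested. A gene was compared when its brighter value reached log2 8.03 (an intensity of 261), the median of all gene values, which kept 9738 genes.

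The cell label was set against marker genes. Of 10 measured muscle progenitor markers, 2 were bright enough to be compared, Itga7 (log2 10.37 and 8.84) and Des (7.61 and 8.28). Above the background level lay 9 of the 10 early and 7 late. Pax7, the satellite cell transcription factor, was at log2 7.35 and 7.38, and the myoblast regulator Myod1 at 6.85 and 6.65. Of 11 measured fibroblast markers, 9 were compared, among them the collagen gene Col1a1 at log2 13.57 and 12.85. Above background lay 8 of the 11 early and 10 late. Lum lay below background in both arrays, at log2 4.86 and 5.43.

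The promoters of the genes higher by 2-fold or more in late diabetes are shown where RefSeq's promoter table, on the GRCr8 assembly, held them. The table held 5 of the 8 genes (Angpt4, Tie1, Angptl1, Angptl2 and Angptl4). The promoter of Angptl4, which was not higher, is shown for contrast. Each is the 250 bases before the annotated start site, read 5′ to 3′ on the strand of the gene. Capitals mark matches on either strand to any of 9 common motifs, chosen after the values were seen. They were the TATA box (TATAAA), the CCAAT box (its own letters), the GC box (GGGCGG), the hypoxia response core (ACGTG), AP-1 (TGANTCA), an NF-kB motif, Fox (GTAAACA), a CREB-like motif (TGACNTCA) and ETS (AGGAAG). Angpt4 lies on the plus strand at chr3:160880480-160880729, Angptl2 on the plus strand at chr3:36914626-36914875, and Angptl4 on the minus strand at chr7:15258682-15258931.
Angpt4: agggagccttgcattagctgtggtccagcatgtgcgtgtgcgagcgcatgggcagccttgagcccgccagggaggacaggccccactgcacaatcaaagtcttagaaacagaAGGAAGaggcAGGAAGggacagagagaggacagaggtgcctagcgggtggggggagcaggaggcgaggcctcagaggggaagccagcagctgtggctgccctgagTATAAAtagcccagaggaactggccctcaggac
Angptl2: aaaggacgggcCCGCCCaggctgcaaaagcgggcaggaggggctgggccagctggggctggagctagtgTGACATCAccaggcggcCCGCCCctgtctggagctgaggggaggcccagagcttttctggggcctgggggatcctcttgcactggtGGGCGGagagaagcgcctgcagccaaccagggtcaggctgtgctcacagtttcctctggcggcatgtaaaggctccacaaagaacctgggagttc
Angptl4: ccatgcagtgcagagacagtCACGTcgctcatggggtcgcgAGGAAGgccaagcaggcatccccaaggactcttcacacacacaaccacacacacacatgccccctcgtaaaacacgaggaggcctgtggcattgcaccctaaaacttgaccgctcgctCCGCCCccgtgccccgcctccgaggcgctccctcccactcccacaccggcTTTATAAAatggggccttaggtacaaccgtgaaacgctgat

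The letters of these promoters differed from gene to gene. The Angpt4 window held a TATA box letter match from 33 to 28 bases before the start site and 2 ETS matches. The Angptl2 window held no TATA box match, but 3 GC box matches and 1 CREB-like match (TGACATCA) from 181 to 174 bases before the start site. The Angptl4 window held 2 TATA box matches on opposite strands that overlap each other, 1 GC box match, 1 ETS match and 1 hypoxia response core match. Over 33469 promoter windows of this length, 12.9% held the TATA box letters, 34.0% the CCAAT box, 30.5% the GC box, 16.6% the hypoxia response core, 6.34% AP-1, 1.08% NF-kB, 3.21% Fox, 8.88% the CREB-like motif and 29.5% the ETS motif. The Angpt4 and Angptl2 windows had no motif of the 9 in common. G and C made up 61.2% of the Angpt4 window and 65.2% of the Angptl2 window, against a median of 51.2% over all windows. They also made up 60.0% of the Angptl4 window and 61.6% of the Tie1 window, while the share in the Angptl1 window lay below that median. Angptl4 and Tie1 were not higher in late diabetes, so a share above the median was not particular to the higher genes. A match describes letters and is not evidence of a factor bound there.

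The question put to the ligands was how their levels differed between cells of early and of late diabetes. The angiopoietin ligands differed by very unequal amounts. Angpt4 was at 190 and 2108 (log2 7.57 and 11.04). It lay above the background level in both arrays and was 11.1-fold higher in the late array, a difference of 3.48 on the log2 scale. Its early value lay under the floor, so Angpt4 entered the comparison through its late value. In the early array 14 of the 1199 olfactory receptor genes were brighter than Angpt4, and in the late array 0 were.

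Angpt1, the activating ligand, was at 70.4 and 285 (log2 6.14 and 8.15). The early value lay below the background level, with 204 olfactory receptor genes brighter, while 2 were brighter in the late array. The measured difference was 2.02 on the log2 scale. Against the background level Angpt1 was higher in late diabetes by at least 2.54-fold. That bound depends on where background is set: it was 3.39-fold with the 90th percentile of olfactory receptor genes and 1.53-fold with the 99th. The late value of Angpt1 passed the floor for comparison by 0.13 on the log2 scale, so it was the compared gene of the set nearest to that floor.

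Angpt2, the context-dependent ligand, was at 134 and 136 (log2 7.07 and 7.09). Both values lay under the floor and a little above the background level, and 42 and 24 olfactory receptor genes were brighter. Its difference was 0.02 on the log2 scale, and it turned to -0.05 when each array was centred on its median over genes (log2 7.99 and 8.06). The late minus early difference of Angpt1 exceeded that of Angpt2 by 1.99 on the log2 scale, as measured, with the early Angpt1 value below background. The difference of Angpt4 exceeded that of Angpt1 by 1.46.

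**Figure D1:**
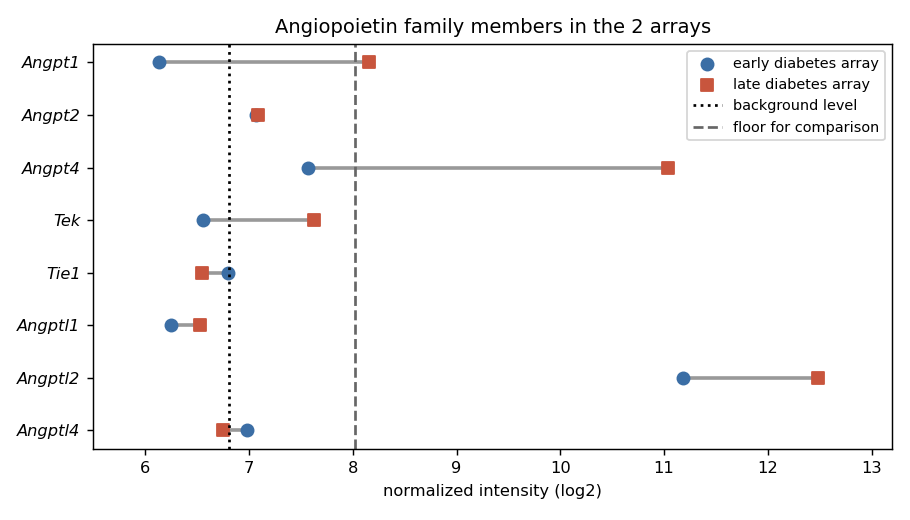
Normalized intensity (x axis, log2) of the 8 genes in the early (circles) and late (squares) array, with the background level (dotted, 6.81) and the floor for comparison (dashed, 8.03); 1 array per group, so no error bars. Angpt4, Angpt1, Tek and Angptl2 have clearly separate points, while the 2 points of Angpt2 nearly coincide and those of Tie1, Angptl1 and Angptl4 lie close to or below background.

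The Tie receptor genes were dim in these cells. Tek, which encodes Tie2, was at 94.0 and 198 (log2 6.55 and 7.63). The early value lay below background, and the late value lay above it but 0.40 under the floor on the log2 scale, so Tek was not among the compared genes. It was the gene of the set just outside the floor, as Angpt1 was the one just inside it. Its measured difference was 1.08 on the log2 scale. Against the background level Tek was higher in late diabetes by at least 1.77-fold. With the 99th percentile of olfactory receptor genes as background the bound was 1.06-fold. With 16 added to each intensity before the logarithm the measured Tek difference was 0.96, just under 2-fold.

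Tie1, the co-receptor, was at 111 and 93.3 (log2 6.80 and 6.54). Both lay below background, so no fold is given. The measured differences of Tek and Tie1 were 1.08 and -0.25 on the log2 scale, 1.33 apart, with 3 of the 4 values below background. For scale, the differences of the 1199 olfactory receptor genes ranged from -1.70 to 0.66, with an SD of 0.20 across genes.

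Of the angiopoietin-like genes of the set, only Angptl2 was bright enough to be compared. It was at 2317 and 5733 (log2 11.18 and 12.49), far above background in both. Angptl2 was 2.47-fold higher in the late array, a difference of 1.31 on the log2 scale. Both values of Angptl2 lay above the floor.

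Angptl4, the lipase inhibitor, was at 127 and 107 (log2 6.99 and 6.75). Its early value was just above and its late value just below background, which leaves a bound of 1.13-fold or more lower in late diabetes. Angptl1 was at 75.9 and 92.1 (log2 6.25 and 6.53), below background in both arrays, so no fold is given. Outside the set, the angiopoietin-like gene Angptl6, which encodes a secreted growth factor, was at log2 8.38 and 8.71. Angptl7 and Angptl8 are not analysed here.

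Over the whole set, 3 of 8 genes were bright enough to be compared, and these 3 (Angpt1, Angpt4 and Angptl2) were all higher in late diabetes by 2-fold or more, while 0 were lower by that much. Among all compared genes 5.84% were higher by 2-fold or more and 3.11% lower. Angpt1 and Angpt4 passed the floor only through their late values, so they had to differ to be counted, and nothing is read from the count of 3. Without the floor, 4 of the 8 were at least 2-fold higher as measured, Tek being the addition, against 3.59% of all 18489 genes. The other 4 (Angpt2, Tie1, Angptl1 and Angptl4) were within 1.5-fold as measured. The median difference of all 8 was 0.68 on the log2 scale, beside -0.04 over all genes. The set was proposed with these values in view, so nothing is read from the count of 4 or from this median. In the late array 5 of the 8 lay above background, and in the early array 4 did.

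**Figure D2:**
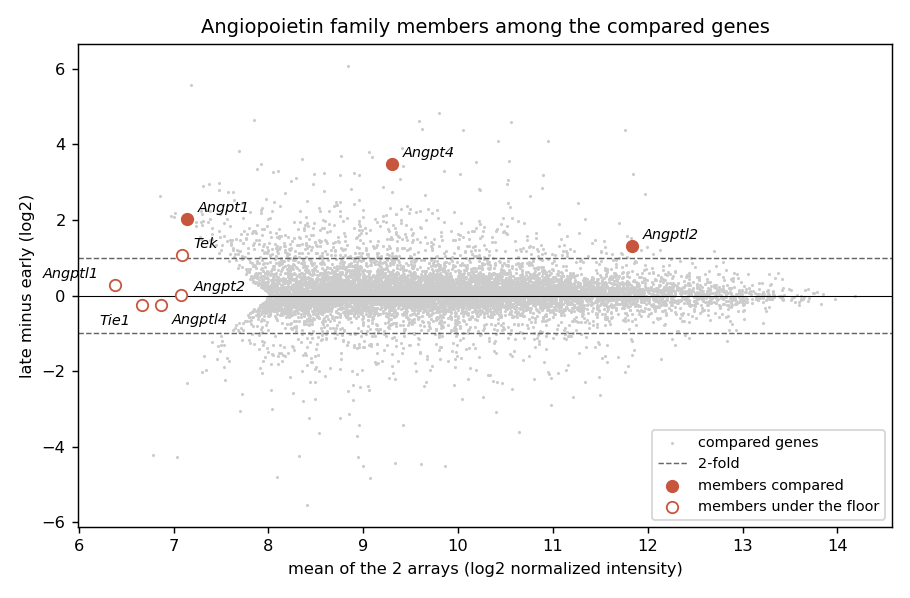
Late minus early difference (y axis, log2) against the mean of both arrays (x axis, log2 normalized intensity) for the 9738 compared genes (grey) and the 8 genes of the set (filled when compared, open when under the floor). Dashed lines mark 2-fold; Angpt4 lies at 3.48, Angpt1 at 2.02, Angptl2 at 1.31 and Tek at 1.08, and the other 4 lie between the dashed lines.

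The genes most like each of these were sought by the distance between pairs of log2 values in the 2 arrays, among compared genes. This measure rests on 2 samples, intensities of different probe sets are not comparable as levels of RNA, and the early values of Angpt1 and Tek lay below background, so the names describe array readings only. Nearest to Angpt4 were Cotl1, an actin-binding protein gene (log2 7.71 and 11.13, distance 0.17), and Epb41l3, a membrane skeleton gene (7.85 and 10.93, distance 0.31). Nearest to Angpt1 were the cation channel gene Mcoln3 (6.26 and 8.21, distance 0.14) and the homeobox gene Hoxc13 (6.32 and 8.16, distance 0.18). Nearest to Angptl2 were Chst11, a chondroitin sulfotransferase gene (11.17 and 12.46, distance 0.03), and Gpx3, a secreted glutathione peroxidase gene (11.06 and 12.57, distance 0.15). For Tek, itself under the floor, the nearest compared genes Srsf12, a splicing factor gene, and Abcb4, a phospholipid transporter gene, were 0.41 and 0.43 away.

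Genes that regulate or relay Tie signals were followed as a fixed list. Of 30 measured genes, 26 were compared; 0 were higher by 2-fold or more and 1 was lower by that much, beside 5.84% and 3.11% of all compared genes. Their median difference was 0.07 on the log2 scale, beside 0.06 over all compared genes, and it was -0.002 after quantile normalization. The same shares and median over all compared genes are the reference for each list below. Grb14, an adaptor that binds receptor tyrosine kinases, was 2.23-fold lower (log2 9.13 and 7.98). Rasa1, a brake on Ras, was 1.54-fold higher (11.48 and 12.10). Foxo1, a transcription factor that Tie2 signalling holds in check through Akt, was at log2 8.88 and 9.18, a measured ratio of 1.24 late over early. Ptprb, the phosphatase that acts on Tie2, is not analysed here.

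Integrins and other receptors outside the Tie family were followed as a list, some of them reported to bind angiopoietins or angiopoietin-like proteins. The median difference was 0.42 over 7 compared of 10 measured genes. Of these, 1 was higher by 2-fold or more and 0 lower by that much, beside 5.84% and 3.11% of all compared genes. Over all 10 measured genes the median was 0.07. Lilrb4, an inhibitory receptor gene of the immunoglobulin superfamily, was higher by at least 5.46-fold (log2 6.69 and 9.26, the early value below background). Whether its product binds any protein of the set was not tested. Itga1, an integrin alpha chain gene, had the lowest difference, -0.20. Itga5 and Itgb1 encode the chains of the integrin that Angptl2 is reported to bind; they were named after their values were seen, and their differences were 0.89 and -0.06.

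The surroundings of Angptl4 were described by its lipase partners, by PPAR genes and by hypoxia response genes, because PPAR factors and low oxygen are known to raise Angptl4 in many tissues. Of 8 compared lipase partners out of 13 measured, 0 were higher by 2-fold or more and 1 was lower by that much, with a median of -0.14. Among all compared genes the shares were 5.84% and 3.11%. Lpl, the lipase itself, was at log2 9.31 and 8.97, and Gpihbp1, its anchor on capillary cells, at 8.40 and 8.16. The proprotein convertase gene Pcsk6 was 3.39-fold lower (10.00 and 8.24), and Furin, a related convertase, was 1.90-fold higher (10.83 and 11.75). Convertases of this family cleave angiopoietin-like proteins.

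Of 13 compared PPAR subunit and target genes out of 20 measured, 1 was higher by 2-fold or more and 0 lower by that much, with a median of 0.20. Cpt1a, which admits fatty acids to mitochondria, was 3.53-fold higher (log2 8.69 and 10.51). The PPAR subunit genes Ppard (10.91 and 10.56) and Pparg (8.25 and 8.27) differed by less than 1.5-fold. Of 21 compared hypoxia response genes out of 22 measured, 4 were higher by 2-fold or more and 1 lower by that much, with a median of 0.49. For both lists, the shares among all compared genes were 5.84% higher and 3.11% lower. Egln3, an oxygen-sensing hydroxylase gene, had the highest difference (at least 3.23-fold higher), and Car9, a carbonic anhydrase gene, the lowest (4.58-fold lower). Hif1a, the oxygen-regulated transcription factor gene, was at 11.94 and 12.52, and Vegfa, the vessel growth factor gene, at 11.27 and 11.48. The part of PPAR factors or oxygen in the Angptl4 values was not tested.

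Tek and Tie1 are best known from endothelial cells, so markers of those cells were measured beside them. Of 18 measured endothelial markers, 4 were compared and 7 lay below background in both arrays. The summed intensity of the 18 was 3989 early and 2954 late. Flt1 alone gave 1323 and 141 of these sums. Over all 18 markers the median difference was -0.17 on the log2 scale, and 11 early and 7 late lay above background. The defining marker Cdh5, the cadherin of endothelial junctions, was at log2 6.97 and 6.93, while Vwf, von Willebrand factor, was at 6.69 and 6.55. Pecam1 and Kdr are not analysed here. Flt1 and Flt4 encode receptors for vascular endothelial growth factors and went opposite ways. Flt1 was 9.40-fold lower in the late array (10.37 and 7.14), and Flt4 was 2.96-fold higher (7.62 and 9.19). The median of the 4 compared markers was -0.08. The part that endothelial cells may have in the Tek values was not tested. In RNA from a whole well, fewer cells of a type and less RNA per cell cannot be told apart.

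Angpt1 is known as a product of mural cells, the pericytes and smooth muscle cells around vessels. Of 13 measured mural markers, 9 were compared, 1 of them higher by 2-fold or more and 2 lower by that much, with a median of -0.45. The shares among all compared genes were 5.84% and 3.11%. Their summed intensity was 40916 early and 29112 late. Pdgfrb, a growth factor receptor of these cells, was 1.52-fold lower (log2 12.81 and 12.20). The proteoglycan gene Cspg4 was 5.22-fold lower (11.15 and 8.77), and the peptidase gene Anpep was 2.92-fold higher (7.32 and 8.87).

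The remaining cell type markers were followed in the same way. White blood cell markers lay below background in both arrays for 10 of 14 measured genes, Ptprc among them, and their summed intensity was 1419 early and 1940 late. Of the 2 compared, Cd68, a lysosomal gene of macrophages, was at least 2.49-fold higher and Cd14, a lipopolysaccharide co-receptor gene, was 1.69-fold higher. None of the 8 measured adipocyte markers reached the floor, and their summed intensity was 1228 and 1123. The 9 compared fibroblast markers had a median of -0.47, with the collagen gene Col3a1 2.11-fold lower and the surface protease gene Fap at least 2.58-fold higher. The summed intensity of the 11 measured fibroblast markers was 49704 early and 35836 late. For the 10 muscle progenitor markers it was 2546 and 1710, with Itga7, an integrin gene, 2.89-fold lower and Des, which encodes desmin, 1.58-fold higher. Itga7 alone gave 1319 and 457 of these sums. Over all 10 muscle progenitor markers the median difference was -0.20 on the log2 scale, and 9 early and 7 late lay above background. The part of these cell types in the values of Angpt1, Angpt4 and Angptl2 was not tested.

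**Figure D3:**
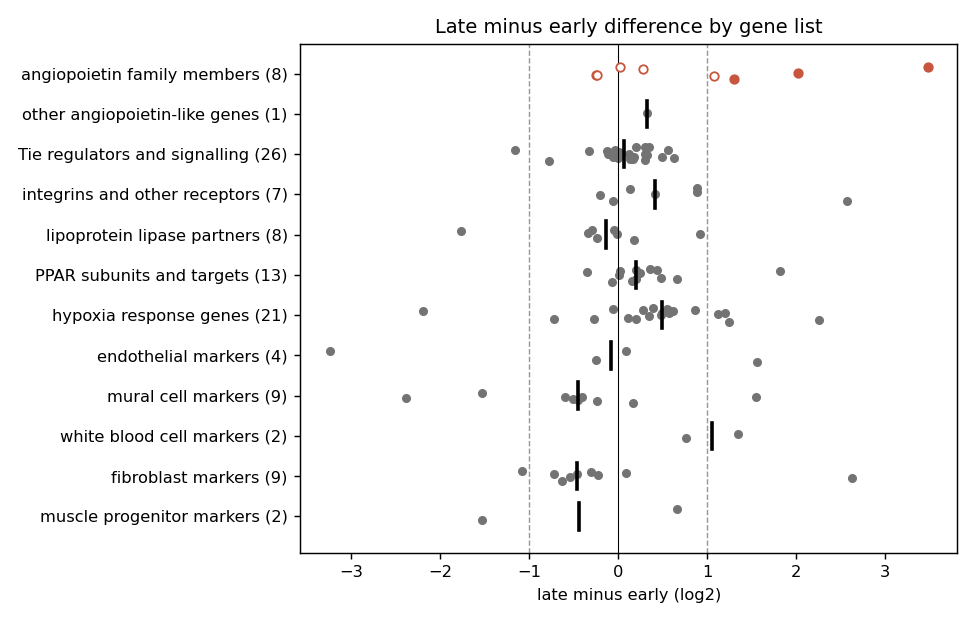
Late minus early difference (x axis, log2) of the 8 genes of the set (top row, filled when compared, open when under the floor) and of the compared genes of each list (grey points, number in brackets, black bar for the median). Dashed lines mark 2-fold; the median of the Tie regulators and signalling genes lies at 0.07 and that of the hypoxia response genes at 0.49.

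The differences of the 8 genes were recomputed with 5 other ways of scaling or summarising the arrays, of which the brightest probe set leaves genes with 1 probe set as they were. Angpt4 ranged from 3.37 to 3.48 on the log2 scale, Angpt1 from 1.80 to 2.14 and Angptl2 from 1.24 to 1.31. Tek ranged from 0.96 to 1.20. Tie1 stayed between -0.32 and -0.11, Angptl4 between -0.31 and -0.10 and Angptl1 between 0.21 and 0.41, while Angpt2 ranged from -0.05 to 0.15 and so took both signs. Tie1 and Angptl1 lay below background in both arrays, and Angptl4 in the late array. Rescaling the same 2 arrays cannot settle a sign for genes that dim.

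**Figure D4:**
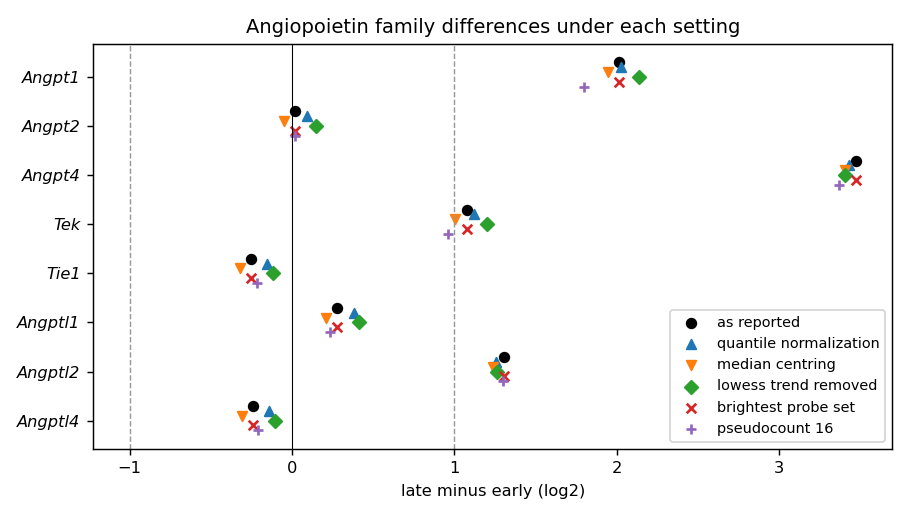
Late minus early difference (x axis, log2) of each of the 8 genes as reported and under 5 alternatives, 1 symbol per setting; dashed lines mark 2-fold. Angpt4, Angpt1 and Angptl2 stay above the 2-fold line in every setting drawn, Tek lies on both sides of it, and the 4 other genes stay within it.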

How the data were processed

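Gene expression was measured on 1 Affymetrix Rat Gene 1.0 ST array per group. The authors deposited a normalized, linear intensity for each of 29214 probe sets, in 2 tables with identical values. The labels do not state how background was corrected, how probes were summarised or how arrays were normalized; software and genome build are likewise not given in the sources used. A common scale hides differences in total RNA. The design was written for log2 values, and the intensities were therefore logged without a pseudocount.

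A total of 20164 probe sets named 1 gene and were used, and those of a gene were averaged, giving 18489 genes. The genes of the set, the lists, the background level and the floor were chosen with earlier results of these data known. Folds are measured values, or "at least" against the background level where the dimmer value lies below it. No fold is given where both lie below it. Named genes are the 8 of the set, and the highest and lowest compared gene of each list if at least 1.5-fold apart. They also include 12 chosen genes whatever their values, and the 2 nearest genes. Itga5, Itgb1, Angptl6, Pax7, Myod1, Col1a1, Lum, Vwf and Ptprc were named outside these rules. Lists are described by counts and medians, with no set test. Some items are not reported here. With 1 array per group the number of arrays limits the precision. The calculations were run on simulated data, with differences larger than 2-fold set into bright genes only. That checks the code and says nothing on dim genes near background. Sequences are from RefSeq, GRCr8 assembly. Alternatives were other fold thresholds (1.5 and 3), other floors, quantile normalization, median centring, a lowess trend removed (span 0.3), the brightest probe set, a pseudocount of 16, means for medians, and other background percentiles (90 and 99). Python 3.11.15, numpy 2.4.6, pandas 2.3.3, statsmodels 0.14.6 and matplotlib 3.10.9 were used.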

Additional observations from a re-analysis of the deposited data

How the results depend on the processing

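No paired analysis was possible because each group holds 1 array, and for the same reason no replicate could be left out. With no replicates, a value was taken as moved when it changed by more than 0.22 on the log2 scale, the SD between probe sets over 409 genes with 2 bright probe sets, which covers probe error only. By that measure 0 of the 40 recomputed differences of the 8 genes moved. Of the 40, 8 are identical by construction, those from the brightest probe set. Angpt1 came near the limit, from 2.02 to 1.80 with the pseudocount. The limit was drawn from bright genes, while 5 of the 8 lay under the floor, so it cannot show that dim genes are stable. The count of compared genes at least 2-fold higher was 3 as reported, 2 at 3-fold (Angpt1 and Angpt4), 2 with the 75th percentile floor (Angpt4 and Angptl2) and 4 with no floor, and the count at least 2-fold lower was 0 under every alternative run. On the log2 scale the bound of Angpt1 against background moved from 1.76 (90th percentile) to 0.61 (99th). Tek lay above background in both arrays at the 90th percentile, where its measured difference of 1.08 stands, and its bound was 0.09 at the 99th. Of 86 recomputed list medians 9 moved. With no floor the median of the white blood cell markers turned from 1.06 to -0.057, and it was 0.065 for integrins and other receptors and -0.20 for muscle progenitor markers. With the 75th percentile floor 1 gene each was left of the endothelial (-3.23) and muscle progenitor (-1.53) markers. Means in place of medians were 0.66 for integrins and other receptors, -0.46 for endothelial and -0.14 for fibroblast markers, and the brightest probe set of Angptl6 gave 0.81. Fewer or more genes entered the medians under other floors; other causes were not tested. Dim signal limits Tek, Tie1, Angptl1, Angptl4 and Angpt2, whose values lie near background.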

Other observations

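Angptl6 was covered by 2 probe sets that did not move alike. One read log2 8.59 early and 9.39 late, 1.75-fold higher, and the other at 8.17 and 8.02, a difference of -0.15 on the log2 scale. The averaged Angptl6 difference of 0.33 therefore describes neither probe set. Each of the 8 genes of the set had 1 probe set, so no such comparison could be made for them.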
